A study of Mus musculus with 5 samples.

Results

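Kinesins are microtubule motors. Those whose genes are named Kif or Kifc were followed here in N18 cells, a mouse neuroblastoma line, after added Dyrk1a. A probe was a member if its only annotated gene symbol began with Kif or Kifc and a digit. This gave 78 probes of 44290 features, for 36 of 19087 genes. The symbols Kif4, Kif11, Kif15, Kif18a, Kif18b, Kif20a, Kif20b, Kif22, Kif23, Kif2c and Kif24 were set apart as 11 mitotic kinesins, with 23 probes, and the other 25 genes, with 55 probes, formed the comparison class. Cells received either an adenovirus with the Dyrk1a coding sequence, the pAd-Dyrk1a vector, or the pAd-Track-CMV vector as control, so both sides carried virus. Each of 5 two-colour arrays set 1 Dyrk1a RNA against 1 control RNA, with the Dyrk1a RNA in Cy5 on replicates 1, 2 and 3 and in Cy3 on replicates 4 and 5. The sources used here give neither the dose of virus nor the time after infection, and N18 is 1 line.

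Kinesins hydrolyse ATP to step along microtubules or, in some families, to take tubulin off microtubule ends. Mitotic kinesins build the spindle, move and align chromosomes and organise the midzone at cytokinesis, and dividing cells make most of them in G2 and M phase. Transport kinesins carry vesicles, organelles and protein complexes, in neurons mainly outwards along the axon. Many cell-cycle promoters carry a CHR element, a short sequence bound by the DREAM complex and by related MuvB complexes, often with CCAAT boxes bound by NF-Y.

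The stretches below run from 70 bases before to 30 bases after the RefSeq gene start. They are shown because 7 mitotic promoters carry the same letters near the start. Capitals mark TTTGAA, the CHR letters, or its reverse complement TTCAAA, and CCAAT or its reverse complement ATTGG. Kif18a stands for the mitotic genes without these CHR letters in the stretch, with Kif24 and Kif2c. Other spellings of the element were not searched. Kif3c and Kif5c are transport kinesins with no match, chosen after the matches were seen. The stretch of a second Kif1a start does hold the CHR letters. Those of Kif3a and Kifc5b hold ATTGG, and those of Kif3b and Kif2b hold CCAAT.
Kif20b, GRCm38.p6 chr19:34922288-34922387, plus strand: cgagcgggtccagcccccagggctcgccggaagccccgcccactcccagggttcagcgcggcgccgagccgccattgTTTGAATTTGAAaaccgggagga
Kif11, GRCm38.p6 chr19:37376312-37376411, plus strand: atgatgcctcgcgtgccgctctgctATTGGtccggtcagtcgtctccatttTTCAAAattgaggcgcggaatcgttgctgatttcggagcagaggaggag
Kif15, GRCm38.p6 chr9:122951011-122951110, plus strand: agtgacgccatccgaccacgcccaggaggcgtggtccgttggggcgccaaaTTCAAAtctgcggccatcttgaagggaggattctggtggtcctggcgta
Kif22, GRCm38.p6 chr7:127042391-127042490, minus strand: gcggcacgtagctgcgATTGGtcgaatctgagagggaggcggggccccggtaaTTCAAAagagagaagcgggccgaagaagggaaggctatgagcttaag
Kif18b, GRCm38.p6 chr11:102925095-102925194, minus strand: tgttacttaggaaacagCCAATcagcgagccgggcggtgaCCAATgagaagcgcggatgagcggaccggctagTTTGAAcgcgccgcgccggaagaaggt
Kif23, GRCm38.p6 chr9:61946770-61946869, minus strand: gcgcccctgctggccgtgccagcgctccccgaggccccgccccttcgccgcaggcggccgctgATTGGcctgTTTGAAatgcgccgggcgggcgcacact
Kif4, GRCm38.p6 chrX:100625995-100626094, plus strand: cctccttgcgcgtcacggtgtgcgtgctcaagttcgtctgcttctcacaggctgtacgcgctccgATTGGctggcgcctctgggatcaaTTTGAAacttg
Kif18a, GRCm38.p6 chr2:109280668-109280767, plus strand: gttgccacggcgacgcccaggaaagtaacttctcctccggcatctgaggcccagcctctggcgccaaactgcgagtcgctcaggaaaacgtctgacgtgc
Kif3c, GRCm38.p6 chr12:3365062-3365161, plus strand: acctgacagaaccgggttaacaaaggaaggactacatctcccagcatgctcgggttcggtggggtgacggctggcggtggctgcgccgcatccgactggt
Kif5c, GRCm38.p6 chr2:49619216-49619315, plus strand: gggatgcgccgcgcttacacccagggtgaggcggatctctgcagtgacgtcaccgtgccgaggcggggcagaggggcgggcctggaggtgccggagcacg

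RefSeq windows of 300 bases, from 250 before to 50 after the start, were found for 10 mitotic and 19 other kinesin genes. The mitotic gene Kif20a had no window, nor had Kif5a, Kif5b, Kif21b, Kifc2 and Kifc3. The 19 include Kif12, Kif16b, Kif17, Kif21a, Kif27, Kif2b and Kif9, which had no probe with a value on all arrays. The promoter classes are therefore not the same genes as those tested below. The CHR letters, searched on both strands, stood in the windows of 8 of the 10 mitotic kinesin genes, against 20.2% of the 27025 genes with a window. Kif18a and Kif24 had no match to these letters. Because other spellings were not searched, the missing match does not show that Kif18a or Kif24 lacks a CHR element. In 7 of the 8 a match began within 20 bases of the start, on either side, a distance chosen after the positions were seen. That held for 2.57% of all genes and for 0 of the 19 other kinesins. Kif20b had 2 matches in a row, beginning 8 and 14 bases after the start. In Kif11 and Kif15 a match began 19 bases before the start, and in Kif22 17 bases before. Kif15 and Kif22 each had a further match, 234 and 215 bases before. In Kif2c the match lay 103 bases before, outside the stretch used above. The letters also occurred in 3 of the 19 other kinesins, Kif1a, Kif27 and Kifc5b. In Kifc5b the match began 30 bases after the start, beyond the chosen distance, and in Kif4 20 bases after. CCAAT letters occurred in 6 of the 10 mitotic and 7 of the 19 other kinesin genes, against 41.1% of all genes. A match of letters describes a window and does not show that a factor binds there.

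**Figure D1:**
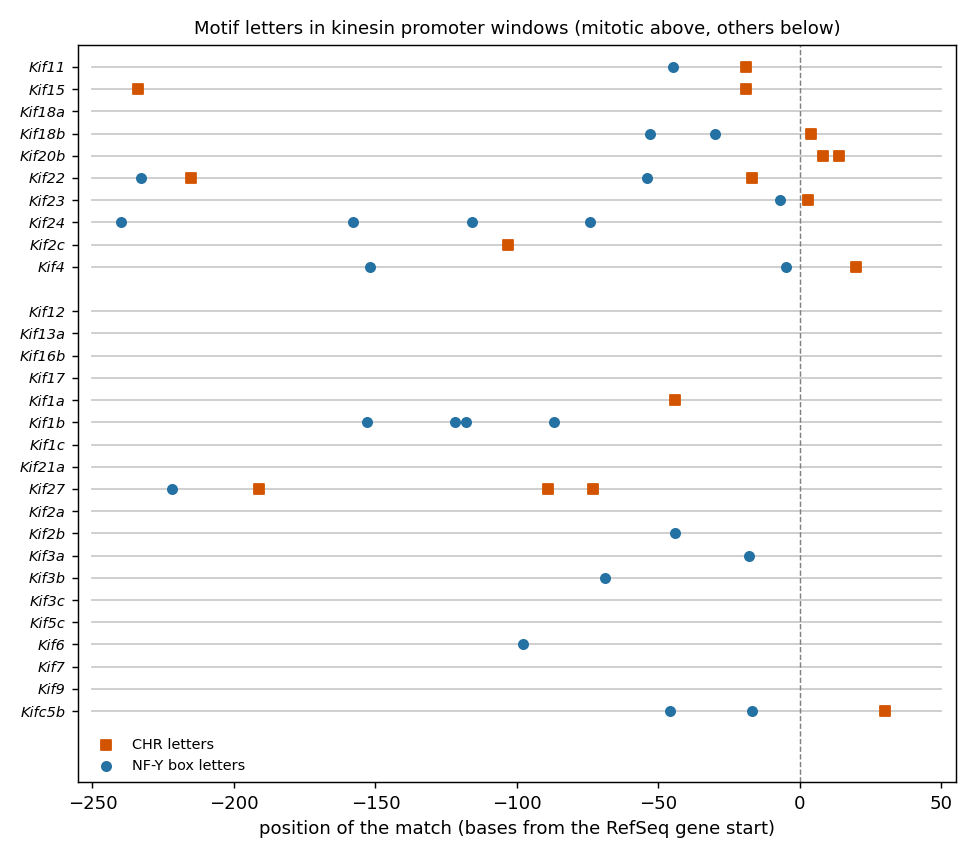
Each line is the 300-base RefSeq window of 1 kinesin gene, with the 10 mitotic genes above and the 19 others below, and the x axis gives bases from the gene start (dashed). Orange squares mark CHR letters and blue circles NF-Y box letters, where a gene with several windows has all its matches on 1 line. In 7 mitotic genes a square stands within 20 bases of the start.

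The deposited values are log ratios whose base and direction were not stated. They were read as log2 and as Dyrk1a over control vector on every array, mainly because the Dyrk1a probe on all arrays was above 0 in 5 of 5. It ranged from 1.93 to 3.02, with a fitted change of 2.46 (SE 0.12, limma adjusted p = 0.0139). Of the other Dyrk1a probes, 1 was deposited at -0.062, -0.07, 0.024 and -0.047 on 4 arrays, and with it averaged in the change was 1.51 and not called (limma adjusted p = 0.0686). The remaining probe was at 0.124 and 0.009 on the 2 arrays that measured it. The call was also lost without replicate 1, 4 or 5, where the fitted change was 2.30 to 2.63. Ratios followed the dye strongly. Over all tested features, arrays of the same dye orientation correlated at 0.46 to 0.90, and arrays of opposite orientation at -0.79 to -0.54. The fit therefore had a dye effect for each gene. Read with replicates 4 and 5 not turned, the Dyrk1a and dye effects would change places, so the dye effects of the members are given below as well. Replicate 2 had an interquartile range of 0.29 over tested features, against 0.15 to 0.18 in the other arrays. Ratios carry no expression level, so neither the identity of the line nor the abundance of any kinesin could be checked, and fewer dividing cells cannot be told apart from less RNA per cell. The series' text calls the 5 measurements independent, and the p-values measure the spread between them.

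A gene was tested where at least 1 of its probes had a value on all 5 arrays, which held for 11 of 11 mitotic and 17 of 25 other kinesin genes. Of the mitotic probes 69.6% had such complete values, against 50.9% of the other kinesin probes and 53.0% of all probes that name 1 gene. No source used here says why values are blank.

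The mitotic kinesins were lower with Dyrk1a, while the other kinesins centred near 0. The fitted log2 ratio was below 0 in each of the 11 mitotic kinesins tested, and their median was -0.22, which is 1.17-fold lower, where 45.1% of the 11191 tested genes were below 0 and their median was 0.0080. The 17 other kinesins had a median of 0.032, with 6 below 0 and 11 above. In limma with Benjamini-Hochberg adjustment over 14307 features, 0 kinesins of either class passed an adjusted p of 0.05, where 0% of genes passed as lower and 0.00894%, Dyrk1a alone, as higher. At an unadjusted p under 0.05 limma had 10 of the 11 mitotic kinesins lower, against 6.38% of all genes, and 4 of the 17 others higher, against 5.25%. Of the mitotic kinesins 7, Kif20b, Kif22, Kif20a, Kif18a, Kif11, Kif15 and Kif2c, were below 0 in all 5 arrays, which held for 6.32% of all genes. Among the others 0 of 17 were below 0 in all 5 arrays and 3 were above 0 in all 5, against 6.71% of genes.

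The calls turned on replicate 2. Without it limma called 8 mitotic kinesins lower at an adjusted p under 0.05, against 2.5% of genes called lower, namely Kif20b, Kif22, Kif20a, Kif18a, Kif4, Kif11, Kif23 and Kif15. It called 2 other kinesins higher there, Kif1a and Kif5a, against 0.858% of genes. The medians moved little, to -0.24 for mitotic and 0.0084 for other kinesins. Without replicate 1, 3, 4 or 5, each in turn, 0 kinesins were called. With all arrays kept, scaling the arrays to the same spread called 5 mitotic kinesins lower, against 1.56% of genes, and 0 others higher, against 0.384%. Quantile normalization also called 5 lower, against 1.7%, and 0 others higher, against 0.42%. Array weights called 10 lower, against 6.41%, and 4 others higher, against 5.56%.

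By array, the median of the mitotic kinesins was -0.17, -0.23 and -0.17 on replicates 1, 2 and 3, and -0.34 and -0.21 on replicates 4 and 5. Those of the other kinesins were 0.075, 0.075 and -0.0010 on the first 3 arrays and 0.0062 and 0.021 on the other two. The mitotic median was the lower one on every array and in both dye orientations, while single genes of the classes overlapped on each array. The median dye effect of the mitotic kinesins was 0.030, with 7 genes above 0 and 4 below. Kif18b had 0.22, Kif23 0.17, Kif18a and Kif20b 0.12, Kif11 0.10, Kif15 0.030 and Kif4 0.025. Below 0 were Kif20a with -0.0095, Kif2c and Kif24 with -0.090 and Kif22 with -0.25. Among the other kinesins the dye effect was highest in Kifc5b, at 0.40, and Kif1a, at 0.24, and the rest lay between -0.056 and 0.071. If replicates 4 and 5 had not been turned, these values would be the Dyrk1a effects. The mitotic kinesins would then show no common side of 0. On that reading the Dyrk1a probe with values on all arrays would be lower with added Dyrk1a on replicates 4 and 5. It was deposited there at 2.995 and 2.353.

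**Figure D2:**
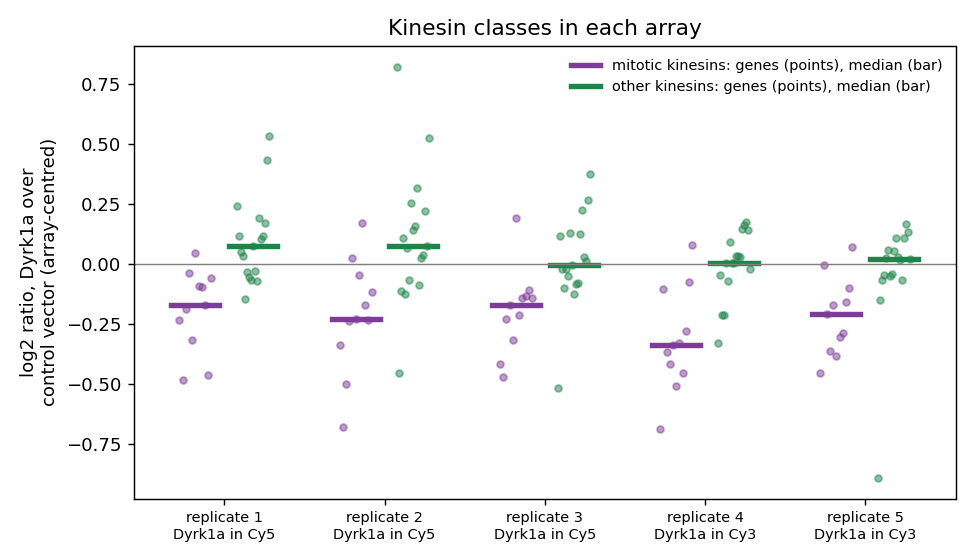
Log2 ratios of Dyrk1a over control vector, centred on each array's median, for the 11 mitotic (purple) and 17 other (green) kinesin genes on each of 5 arrays. Points are genes and bars class medians. The mitotic medians lie between -0.34 and -0.17 and those of the others between -0.0010 and 0.075.

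Kif20b, a kinesin of late mitosis needed for the completion of cytokinesis, had the lowest fitted value among the Kif and Kifc genes tested. Its centred log2 ratios were -0.23, -0.34, -0.42, -0.69 and -0.45 on replicates 1 to 5. All arrays were below 0, and the lowest was replicate 4. The fitted change was -0.45 (SE 0.051, 95% interval -0.57 to -0.32), a 1.37-fold lower level with a limma adjusted p of 0.0605. Its 3 probes, tested singly, had fitted values from -0.50 to -0.36. Of the 11191 tested genes, 28 had a smaller p. Kif20b was called lower without replicate 2 (limma adjusted p = 0.0222).

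Kif20a and Kif23 encode the partner motors of the central spindle, where Kif20a brings in the Aurora B complex and Kif23 forms centralspindlin. Kif20a was at -0.19, -0.50, -0.23, -0.36 and -0.21, below 0 on every array and nearly free of dye effect (-0.0095). The fitted change was -0.30 (SE 0.059, limma adjusted p = 0.150), and its 2 probes gave -0.32 and -0.27. Kif23 was at -0.096, 0.17, -0.14, -0.45 and -0.29, so replicate 2 alone stood above 0. Its fitted change was -0.20 (SE 0.060, limma adjusted p = 0.309), and -0.24 without replicate 2, where it was called (limma adjusted p = 0.0326). Kif4, a chromosome-bound motor that sets the length of the midzone with Prc1, also had replicate 2 alone above 0. It was at -0.31, 0.026, -0.32, -0.34 and -0.17, with a fitted change of -0.23 (SE 0.065, limma adjusted p = 0.282). Leaving out replicate 2 gave -0.28, a called change (limma adjusted p = 0.0236). In Kif4 and Kif23 both tested probes showed replicate 2 above 0. Kif4 and Kif22 each have a related pseudogene in the RefSeq table, and signal from the gene and from such a copy cannot be told apart here.

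Among the motors that build the spindle, Kif11 encodes Eg5, the bipolar motor that slides spindle poles apart, and Kif15 a motor that backs it up in human cells. Kif11 was at -0.091, -0.044, -0.21, -0.33 and -0.31, below 0 on all arrays, with a fitted change of -0.22 (SE 0.039, limma adjusted p = 0.132). Another Kif11 probe, measured on 4 arrays and left out of the fit, was deposited at 0.026, -0.088, 0.091 and -0.030 on replicates 2 to 5. On the same arrays the tested probe was deposited at 0.007, -0.19, -0.36 and -0.33. With the other probe averaged in, Kif11 was at -0.11 (limma adjusted p = 0.406). Kif15 was the steadiest member, at -0.17, -0.17, -0.13, -0.28 and -0.16, averaging -0.18 ± 0.056 (SD, n = 5). Its fitted change was -0.19 (SE 0.036, limma adjusted p = 0.142). A further Kif15 probe was deposited at 0.20, -0.085 and -0.23 on replicates 3 to 5.

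Chromosome motors and microtubule depolymerases make up the remaining mitotic kinesins. Kif22, the chromosome arm motor Kid, was at -0.48, -0.68 and -0.47 with Dyrk1a RNA in Cy5 but at -0.10 and -0.0010 in Cy3. All arrays were below 0, the last by next to nothing, and the groups of arrays did not overlap. The fitted change was -0.30 (SE 0.047, limma adjusted p = 0.0939) beside a dye effect of -0.25 (limma adjusted p = 0.0601). Kif18a, which dampens chromosome oscillations at metaphase, split the other way, at -0.035, -0.24 and -0.17 in Cy5 and at -0.42 and -0.36 in Cy3. Its fitted change was -0.27 (SE 0.043, limma adjusted p = 0.0967). Its relative Kif18b, which shortens astral microtubules in human cells, was at 0.047, -0.23 and 0.19 in Cy5 and at -0.51 and -0.38 in Cy3. The arrays of Kif18b in Cy5 fell on both sides of 0, and the fitted change was -0.22 (SE 0.067, limma adjusted p = 0.310) with a dye effect of 0.22. Kif2c, the depolymerase MCAK that corrects wrong kinetochore attachments, was at -0.46, -0.23, -0.11, -0.076 and -0.098. All were below 0, with replicate 1 lowest. Its fitted change was -0.18 (SE 0.058, limma adjusted p = 0.335), and -0.13 without replicate 1.

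Kif24, a depolymerase of the centriole that holds back cilium growth in human cells, was the exception among mitotic kinesins. Its tested probe was at -0.058, -0.12 and -0.14 in Cy5 and at 0.080 and 0.073 in Cy3, so its sign followed the dye. The fitted change was -0.014 (95% interval -0.097 to 0.069), and the dye effect was not called (limma adjusted p = 0.256). Another Kif24 probe, left out of the fit, was deposited at -0.14, 0.041 and -0.050 on replicates 1 to 3 and -0.062 on replicate 4. The sign of that probe did not follow the dye.

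**Figure D3:**
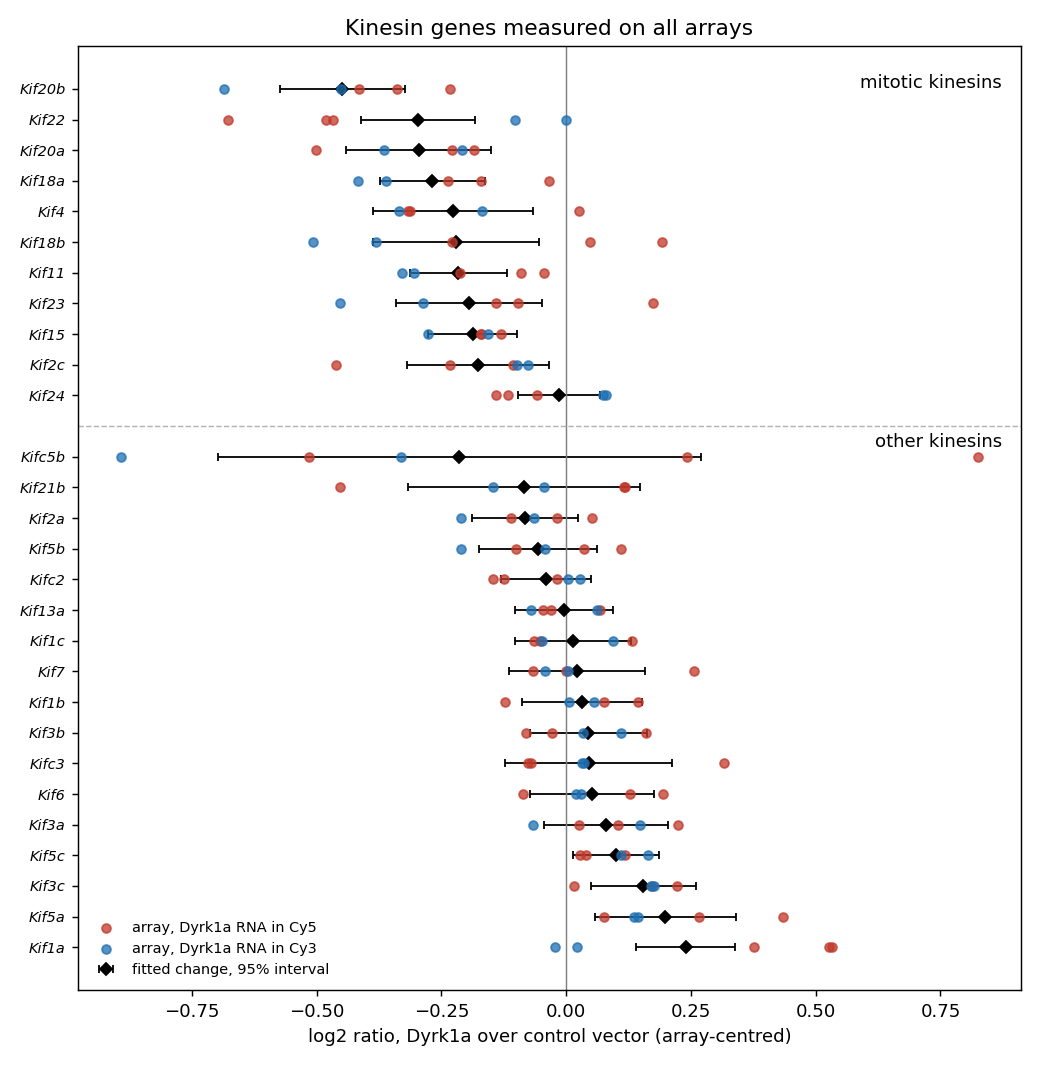
Centred log2 ratios of Dyrk1a over control vector for 11 mitotic (above the dashed line) and 17 other kinesin genes. Points are the 5 arrays, red with Dyrk1a RNA in Cy5 and blue in Cy3, and black diamonds the fitted change with its 95% interval. The intervals of all mitotic genes except Kif24 lie below 0, and those of Kif5c, Kif3c, Kif5a and Kif1a above 0, none of them adjusted for the number of genes tested.

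Of the neuronal cargo motors, 4 had intervals above 0. Kif1a, the carrier of synaptic vesicle precursors, was at 0.53, 0.53 and 0.38 in Cy5 but at -0.022 and 0.021 in Cy3. The groups of arrays did not overlap, and its dye effect of 0.24 passed the test (limma adjusted p = 0.0406). It was the 1 kinesin of 28 whose dye effect passed, where 0.465% of genes passed as higher in Cy5 and 0.867% as lower. Its fitted Dyrk1a effect was also 0.24 (SE 0.040, limma adjusted p = 0.109), and it was called higher without replicate 2 (limma adjusted p = 0.0367). A second Kif1a probe, left out of the fit, was deposited at -0.071 on replicate 2 and 0.10 on replicate 4, so it did not show the high value of the tested probe on replicate 2.

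Kinesin-1, the conventional kinesin that carries mitochondria, vesicles and other cargo, has 3 heavy chain genes. Kif5a, largely neuronal, was at 0.43, 0.075, 0.27, 0.14 and 0.14, above 0 on all arrays, with a fitted change of 0.20 (SE 0.057, limma adjusted p = 0.283). Leaving out replicate 2 gave 0.24, called higher (limma adjusted p = 0.0316). Another Kif5a probe, left out of the fit, was deposited at 0.021, 0.28, 0.13 and -0.035 on replicates 1 to 4. Kif5c, also enriched in neurons, was at 0.12, 0.040, 0.028, 0.16 and 0.11, again above 0 on all arrays, with a fitted change of 0.10 (SE 0.035, limma adjusted p = 0.380). Kif5b, the widely expressed heavy chain, was at 0.036, 0.11, -0.10, -0.21 and -0.042. Its arrays fell on both sides of 0, and the fitted change was -0.056 (95% interval -0.17 to 0.063).

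Kinesin-2 motors work in cilia and in axonal transport. Kif3c, the neuron-enriched partner of Kif3a, was at 0.17, 0.22, 0.015, 0.18 and 0.17, above 0 on all arrays with replicate 3 apart from the rest. Its fitted change was 0.15 (SE 0.043, limma adjusted p = 0.260). Kif3a was at 0.080 (95% interval -0.045 to 0.20), and its 2 probes gave 0.14 and 0.017. Kif3b was at 0.044 (95% interval -0.073 to 0.16).

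The remaining kinesins of the comparison class, apart from those listed below for roles in division, had fitted values near 0. In the kinesin-3 family of vesicle carriers Kif1b was at 0.032, Kif1c at 0.013 and Kif13a at -0.0035, and the probes of Kif1b and of Kif13a fell on both sides of 0. Kif21b, a neuronal kinesin-4, was at -0.084 (95% interval -0.32 to 0.15), with replicate 2 at -0.45 and the other arrays between -0.15 and 0.12. The hedgehog pathway kinesin Kif7 was at 0.022, Kif6, of cilia, at 0.052, and the minus-end-directed motors Kifc2 and Kifc3 at -0.040 and 0.045. The intervals of all these genes held 0.

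Of the comparison class, 2 tested genes were listed, from general knowledge, as having roles in division. Kif2a, a depolymerase of spindle poles and of growing axons, was at 0.052, -0.11, -0.018, -0.21 and -0.065, with a fitted change of -0.082 (95% interval -0.19 to 0.025). Its mitotic relative Kif2c was at -0.18, and the difference between them was not tested. Kifc5b, closely related to the spindle motor gene Kifc1, had the widest spread of any Kif or Kifc gene tested. It was at 0.24, 0.82 and -0.52 in Cy5 and at -0.33 and -0.89 in Cy3. Both its probes showed this pattern, with deposited values of 0.88 and 0.87 on replicate 2 and -1.03 and -0.79 on replicate 5. The fitted change was -0.21 (SE 0.20, limma adjusted p = 0.761). It ran from -0.37 without replicate 2 to -0.039 without replicate 3. Signal from Kifc1, which shares synonyms with Kifc5b in the RefSeq table, cannot be told apart from it here.

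**Figure D4:**
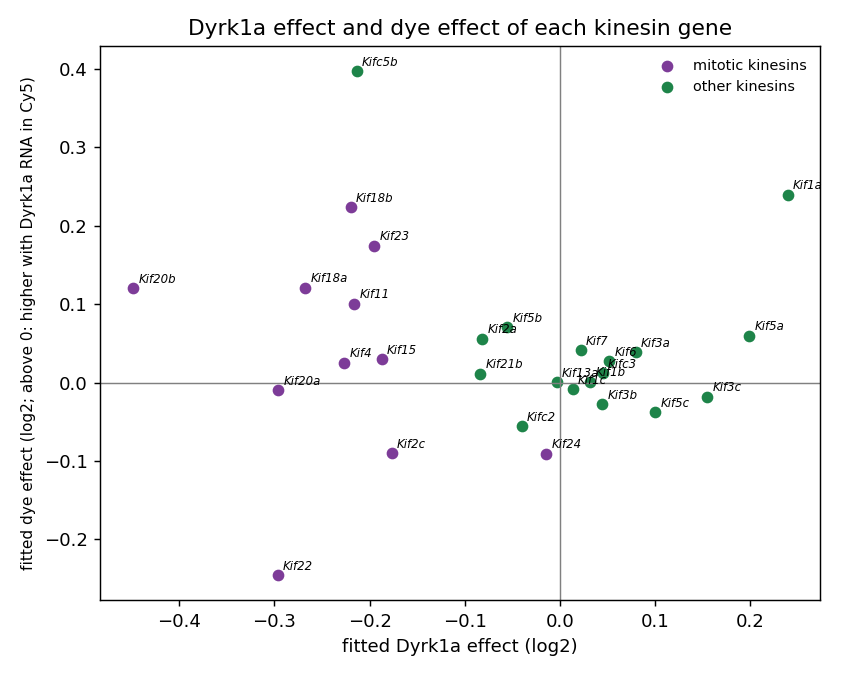
Fitted Dyrk1a effect (x axis, log2) against fitted dye effect (y axis, log2, above 0 where the ratio was higher with Dyrk1a RNA in Cy5) for 28 kinesin genes. The mitotic genes (purple) lie left of 0 with dye effects from -0.25 to 0.22, and Kif1a lies at 0.24 on both axes.

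Another 8 kinesin genes, Kif12, Kif13b, Kif16b, Kif17, Kif21a, Kif27, Kif2b and Kif9, had no probe with a value on all arrays. Their 16 probes gave 28 deposited values between -0.34 and 0.20, and the Kif2b probe gave none. Kif21a, a kinesin-4 of neurons, had the widest range, from -0.34 to 0.14. Another 7 mitotic probes, of 5 genes, were outside the fit. Of their 17 deposited values 11 were below 0, with a median of -0.050, closer to 0 than the tested mitotic probes.

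Partners of the mitotic kinesins were below 0 as well, on the same 5 arrays. They were listed with earlier results of these data known, so their values give no independent support. The list of 18 genes holds the kinetochore motor gene Cenpe, whose symbol falls outside the membership rule. It also holds the genes of the midzone, centralspindlin, chromosomal passenger and spindle assembly proteins and their kinases. All 17 tested had a fitted value below 0, with a median of -0.28, and 14 were below 0 in all 5 arrays, against 6.32% of genes. In limma 0 passed over all features, 15 were lower at an unadjusted p under 0.05, against 6.38% of genes, and 14 were called lower without replicate 2, against 2.5%. The direction rests on the same reading of the columns. The partners' dye effects had a median of -0.013, with 6 above 0 and 11 below. Incenp, the scaffold of the passenger complex, was at -0.35 (SE 0.036), with arrays from -0.40 to -0.27. Aurkb, its kinase, was at -0.36, and Cdk1, which drives entry into mitosis, at -0.30, each with a limma adjusted p of 0.0605. CHR letters stood in the windows of 10 of the 15 partner genes with a RefSeq window, against 20.2% of all genes. In 6 of the 15 a match began within 20 bases of the start, against 2.57%. CCAAT letters stood in 11 of the 15, against 41.1%. Whether these letters bear on the ratios was not tested.

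Light chains and cargo adaptors of the transport kinesins had a median of 0.020 over 13 tested genes of 17 listed, with 11 above 0, against 54.9% of genes, and 3 above 0 in all 5 arrays, against 6.71%. In limma 0 passed over all features, 3 were higher at an unadjusted p under 0.05, against 5.25% of genes, and 0 were called without replicate 2. The kinesin light chain gene Klc3 was at 0.14 (SE 0.033, limma adjusted p = 0.200), with 0.22, 0.22 and 0.23 in Cy5 and 0.016 and 0.083 in Cy3. Klc4, another light chain, was at 0.11, and Trak2, which links kinesin-1 to mitochondria, at 0.12.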

How the data were processed

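Per the labels' protocols, RNA was isolated with Trizol, amplified and labelled for Agilent two-colour mouse arrays. The authors deposited log ratios, read here as log2, with values for 28236 to 31001 of 44290 features per array. The log base was inferred, and scanning, background correction and normalization are not given in the sources used here. Intensities were not used, so no filter on dim probes was run, and the number of arrays limits the precision.

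A gene's value was the mean of its probes with values on all 5 arrays. Unnamed features were tested beside the genes, 14307 features in all, and each array was centred on its median. Changes were fitted with limma 3.58.1 in R 4.3.3 (lmFit, eBayes, two-sided) with a Dyrk1a and a dye coefficient, Benjamini-Hochberg adjusted. The fit was also run on simulated ratios whose noise did not differ between arrays. These lacked the wider spread of replicate 2, and no result here rests on them. Python 3.11.15, pandas 2.3.3 and matplotlib 3.10.9 made summaries and plots. Symbols came from the platform annotation, and names, promoters and chromosomes from RefSeq tables of GRCm38.p6.

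Every tested kinesin is named, and the 3 genes of smallest p of each further list. The members and lists were chosen with earlier results of these data known. No test was made over a list. Alternatives were the dye term, array spread, quantile normalization, array weights, centring, probes on at least 4 arrays, single probes, and each array left out with the probes kept.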

Additional observations from a re-analysis of the deposited data

Results flagged for a closer look

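In 4 of 38 genes examined, 1 array stood apart from the other 4 by more than Dixon's 95% limit for 5 values. Chance alone would do so for about 1 in 20 groups. Kif15 was lowest on replicate 4, at -0.28. Kif3c was lowest on replicate 3, at 0.015. Replicate 2, the array with the widest spread over all features, was highest for Kif7, at 0.26, and for Kifc3, at 0.32. The fitted values without replicate 2 were -0.026 for Kif7 and -0.020 for Kifc3, and neither gene was called in any setting.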

How the results depend on the processing

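The median of the mitotic kinesins ran from -0.26 with quantile normalization to -0.19 without replicate 4, and that of the other kinesins from 0.0013 with array weights to 0.040 without replicate 3. The count of mitotic kinesins called lower was 5 with array spread scaled, 5 with quantile normalization and 10 with array weights, and 0 to 8 with 1 array left out. The same 5 genes, Kif11, Kif18a, Kif20a, Kif20b and Kif22, were called with array weights, scaled spread, quantile normalization and without replicate 2. Genes called lower over the whole table were then 717, 175, 190 and 280. Other kinesins called higher were 4 with array weights and 0 to 2 with 1 array left out. The weights, 3.74, 0.15, 0.58, 1.76 and 1.76 on replicates 1 to 5, were estimated from these arrays. Tested singly, 12 of 28 other kinesin probes were below 0. Signs turned in 6 genes, all with main fitted values between -0.084 and 0.045. With array weights Kif24 was at 0.0028, Kif1c at -0.0031, Kif21b at 0.0013, Kif7 at -0.033 and Kifc3 at -0.012. Kif13a was at 0.0019 without centring and 0.0066 with probes on at least 4 arrays. With 1 array left out Kif13a ran from -0.036 to 0.029, Kif1c from -0.022 to 0.049, Kif21b from -0.13 to 0.011, Kif7 from -0.026 to 0.054 and Kifc3 from -0.020 to 0.078. The cause of these moves was not tested. Dyrk1a lost its call without replicate 1, 4 or 5 (limma adjusted p = 0.334, 0.0985 and 0.0521) and with probes on at least 4 arrays (limma adjusted p = 0.0686), with fitted values of 1.51 to 2.63. Each ratio already sets a Dyrk1a sample against a control sample on 1 array, so the fit on ratios used this pairing. No further pairing was modelled.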

Other observations

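Dynein and dynactin, the motor complex that moves cargo towards microtubule minus ends, had a median of 0.052 over 21 tested genes of 24 listed, with 16 above 0, against 54.9% of genes, and 5 below. In limma 0 passed over all features. At an unadjusted p under 0.05 limma had 1 lower, against 6.38% of genes, and without replicate 2 it called 1 lower, against 2.5%. A count of 1 among 21 is near these shares. It was Pafah1b1, which encodes the dynein regulator LIS1. It was at -0.17, -0.34, -0.17, -0.37 and -0.21 on replicates 1 to 5, below 0 on all arrays. Its fitted change was -0.26 (SE 0.046, limma adjusted p = 0.124), and -0.23 without replicate 2 (limma adjusted p = 0.0338). Dync1i2, an intermediate chain, was at 0.22, 0.32 and 0.27 with Dyrk1a RNA in Cy5 and at -0.15 and -0.11 in Cy3, with a fitted change of 0.068. Actr1a, the dynactin filament subunit, had a fitted change of 0.10 with arrays from -0.028 to 0.34.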
